A study of Homo sapiens with 16 samples.

Results

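Collagens, laminins and integrins were described in LN229 cells, a human glioblastoma line, across 8 groups of 2 RNA-seq libraries each. The members were every gene whose symbol has the form of a collagen alpha chain (COL, a number, A, a number), a laminin chain (LAMA, LAMB or LAMC with a number) or an integrin alpha or beta chain. They numbered 59 of the 14108 genes listed in either of 2 tables, with 31 collagens, 9 laminins and 19 integrins. Of these, 56 were listed in both tables, COL9A1 only in the first, and COL8A2 and LAMA2 only in the second. A further 22 genes of these names in the RefSeq annotation were listed in neither table, among them COL1A2, COL3A1, LAMA1, ITGB2, ITGB6, ITGB7 and ITGA8, and were not analysed here.

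The first experiment compared untreated LN229 cells in regular culture (DMEM with 10% serum) and in ischemic culture. Ischemic culture joined low glucose (2 mM), low glutamine (0.1 mM), low serum (1%) and no added pyruvate with about 1% oxygen, as the study's methods describe it. The parts of that mixture cannot be told apart. The second experiment crossed the same 2 cultures with 3 treatments, the solvent DMSO, VX745 and MK25. VX745 inhibits the stress kinase p38α and MK25 inhibits MK2, the kinase that p38 activates. All groups share 1 established cell line with no genetic change named in the labels, the study's methods give 2 µM for VX745 and 10 µM for MK25 without naming these libraries and no duration for them, and the labels do not say whether the 2 libraries of a group came from separate cultures, so p-values measure only the spread between libraries.

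Collagens are triple helices of 3 alpha chains, and laminins are cross-shaped trimers of 1 alpha, 1 beta and 1 gamma chain. Type IV collagen and laminin build the networks of the basement membrane, which in brain is found mainly along blood vessels and the pia. Integrins are pairs of 1 alpha and 1 beta chain that hold cells to these proteins and signal through an adhesion complex on the cytoplasmic side. Glioma cells meet vessel walls and a hyaluronan-rich tissue with little fibrillar collagen, and several integrins are known on them.

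Some chains of 1 trimer are made from genes that lie side by side, and 1 such pair carries a result below. COL4A1 and COL4A2 sit head to head on chromosome 13, with COL4A1 read from base 110307157 of the reverse strand and COL4A2 from base 110307284 of the forward strand (GRCh38.p14, RefSeq). The 126 bases between the starts are 80.2% G or C and stand here on the forward strand, because one chain changed in ischemic culture and the other did not pass the test.
COL4A1 to COL4A2, chr13:110307158-110307283: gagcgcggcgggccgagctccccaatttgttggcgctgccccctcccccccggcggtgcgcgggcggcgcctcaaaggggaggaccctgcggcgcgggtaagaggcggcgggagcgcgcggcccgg

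LAMA3 and LAMB3, chains of laminin-332, were the only 2 of the 45 members matched in the promoter table whose 250 bases before a RefSeq start hold TGACTCA on either strand, the sequence bound by AP-1 factors. LAMA3 is shown before its listed start at base 23873020 of chromosome 18, and LAMB3 before 1 of its 3 listed starts, at base 209651374 of chromosome 1. The windows before the other listed LAMB3 starts, at bases 209652329 and 209652425, hold no match. The listed LAMA3 start lies inside the gene, which begins at base 23689453. Both stretches are on the gene's strand with the match, or its reverse complement TGAGTCA, in capitals.
LAMA3, chr18:23872880-23872969, forward strand: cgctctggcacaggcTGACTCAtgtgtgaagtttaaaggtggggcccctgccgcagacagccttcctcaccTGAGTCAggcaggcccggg
LAMB3, chr1:209651405-209651494, reverse strand: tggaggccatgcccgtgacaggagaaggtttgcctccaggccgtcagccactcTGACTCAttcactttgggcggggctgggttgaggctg

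TGACTCA was found in 4.20% of 35116 RefSeq promoter windows of that length and in 2 of 57 member windows, 3.51%, a share near that of all windows. The core sequences ACGTG and GCGTG, which hypoxia-inducible factors bind, were found in 18.5% and 32.2% of all windows, and in 8 and 16 of 57 windows of 45 member genes, 14.0% and 28.1%. TGANGCAA, a core of ATF4 and C/EBP composite sites, was found in 2.77% of all windows. It was found in 2 of 57 member windows, 3.51%, those of COL9A1 and ITGB5. A match is a description of letters in the window. No value here bears on whether a factor was bound.

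The libraries held 22346073 to 28373993 reads in the first experiment and 20122017 to 37562668 in the second as recovered from the deposited values. All 8 glioma or astrocyte markers were listed, with VIM at 11.1 to 12.8 and NES at 8.40 to 9.90 log2 CPM, a read count scaled to the library's size. CD44 lay at 9.57 to 9.98, EGFR at 5.81 to 7.11, S100B at 4.54 to 5.47 and SOX2 at 3.13 to 6.48. OLIG2 lay at 0.94 to 3.09, whereas GFAP lay between -0.36 and 1.06. By the 2-fold rule given below, 2 of these 8 rose and 3 fell in untreated ischemic cells, where 11.3% and 9.1% of all genes did. In DMSO 1 rose and 2 fell, where 9.03% and 8.11% of all genes did. None of 5 endothelial markers was listed. Of 6 leukocyte markers only CD68 and ITGAM were listed, with PTPRC, CD14 and CD3E among those absent from both tables. Of 5 fibroblast or pericyte markers 4 were listed, without COL3A1, and 3 of 6 epithelial markers were listed, without EPCAM, CDH1 and KRT5.

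Per kilobase of the longest annotated transcript, untreated LN229 cells in regular culture made most mRNA for a short list of chains. Among integrins, ITGA3, the alpha chain of a laminin receptor, led with 219 ± 12 (SD, n = 2) normalized CPM per kilobase (RPKM). Its partner ITGB1, which pairs with most of the alpha chains here, followed with 161 ± 0.669 (SD, n = 2), and ITGA6, another laminin-binding alpha chain, with 53.6 ± 0.933 (SD, n = 2). ITGA5, the fibronectin receptor chain, followed ITGA6 with 37.4 ± 3.84 (SD, n = 2). The order of these 2 chains was not the same in regular DMSO cells, with 58.6 ± 3.9 (SD, n = 2) for ITGA5 and 45.9 ± 4.35 (SD, n = 2) for ITGA6.

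Among laminins, LAMB1 had 110 ± 5.82 (SD, n = 2) RPKM and LAMC1 62.8 ± 5.96 (SD, n = 2). LAMA4, the alpha chain that joins them in laminin-411, had 27.1 ± 1.75 (SD, n = 2), which overlapped LAMB2 at 26.5 ± 1.95 (SD, n = 2). These 4 chains are those of laminin-411 and laminin-421. LAMA5 lay at 0.584 ± 0.0361 (SD, n = 2).

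Among collagens, COL9A3, a chain of the fibril-associated type IX, had 157 ± 6.51 (SD, n = 2) RPKM. COL4A2 had 139 ± 13.8 (SD, n = 2) and COL11A1, a minor fibrillar chain, 102 ± 6.69 (SD, n = 2). COL6A2 and COL6A1, chains of the microfibrillar type VI, had 80.0 ± 2.31 (SD, n = 2) and 67.6 ± 6.49 (SD, n = 2), and the third chain COL6A3 lay at 1.96 and 1.78 log2 CPM against 8.05 and 8.25 for COL6A1. COL1A1, the main chain of type I collagen, lay at 2.41 and 2.70. In regular DMSO cells COL9A3 and COL4A2 again led, and COL11A1, at 64.9 ± 0.696 (SD, n = 2) RPKM, overlapped COL6A2 at 66.2 ± 2 (SD, n = 2).

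**Figure D1:**
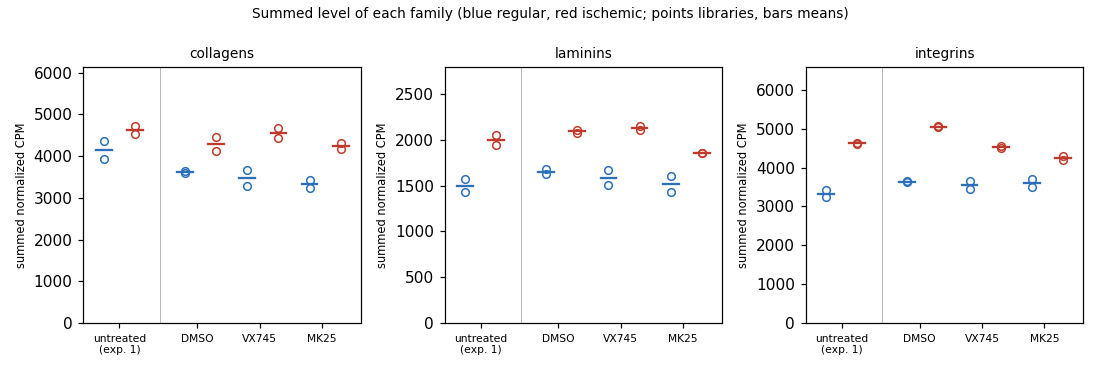
Summed normalized CPM of the members of each family in every library (blue regular, red ischemic culture; circles are libraries, bars are means of 2). In each experiment and treatment the ischemic libraries lie above the regular ones in all 3 panels, from 3254 and 3410 to 4611 and 4625 for untreated integrins.

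The summed normalized CPM of each family was higher in ischemic culture, and these sums carry no test. Integrins summed to 3254 and 3410 normalized CPM in regular and to 4611 and 4625 in ischemic untreated libraries, and to 3650 and 3628 against 5057 and 5035 in DMSO. Laminins summed to 1428 and 1572 against 1940 and 2054 untreated, and to 1624 and 1677 against 2073 and 2111 in DMSO. Collagens summed to 3943 and 4362 against 4530 and 4711 untreated, and to 3632 and 3601 against 4133 and 4450 in DMSO. A sum is carried by its few most abundant chains. As a plain percentage of all reads, without the normalization, collagens overlapped between the cultures. They made up 0.426% and 0.471% in regular against 0.441% and 0.446% in ischemic untreated libraries. In DMSO they made up 0.378% and 0.381% against 0.373% and 0.398%. Laminin and integrin percentages were still higher in the ischemic untreated and DMSO libraries.

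In ischemic untreated cells, 9 of 57 members rose and 2 fell by at least 2-fold with an adjusted p under 0.05 (limma, all 13559 genes). Of all genes, 11.3% rose and 9.1% fell by that rule, 20.4% in either direction, beside 15.8% and 3.51% of the members. By the adjusted p alone, with no fold threshold, 34 members were higher and 9 lower, where 35.2% of all genes were higher and 35.2% lower. The median log2 fold change of the members was 0.34, against -0.01 over all genes, and was 0.17 after quantile normalization.

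In DMSO, 8 of 58 members rose and 1 fell, with 9.03% and 8.11% of all 14024 genes rising and falling by the same rule, 17.1% in either direction. By the adjusted p alone 30 members were higher and 7 lower, against 34.4% and 35.2% of all genes, and the median of the members was 0.25, or 0.13 after quantile normalization. The experiments share no library. Of the 56 members in both, 6 rose in both and 1 fell in both, where 7.58% and 5.36% of the 13475 genes in both tables did so. By the adjusted p alone, 28 members were higher in both, 6 were lower in both and none was significant in opposite directions, where 28.1% of all genes in both tables were higher and 27.9% lower in both. A bulk library cannot tell fewer cells that make a chain from less of its mRNA per cell, and log2 values of genes with few reads understate a change.

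**Figure D2:**
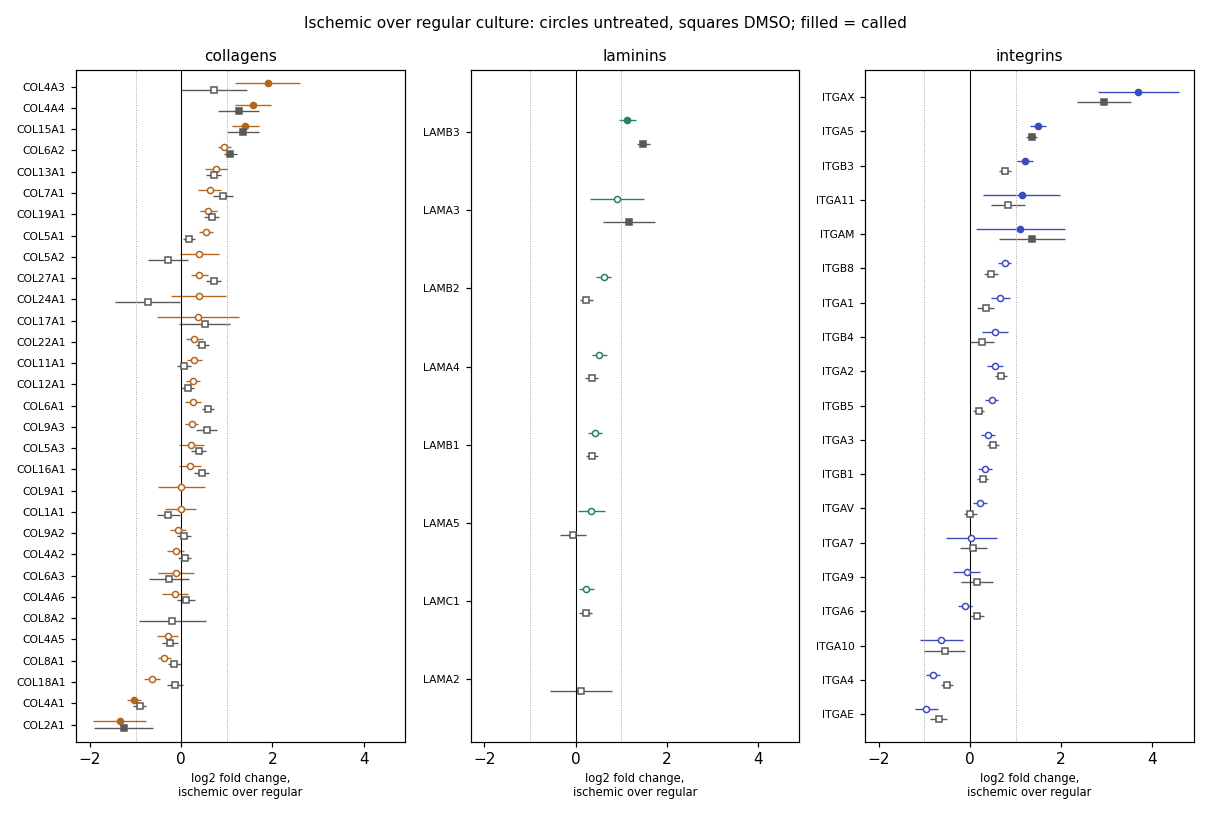
Log2 fold change of ischemic over regular culture for 58 members, by family, with 95% confidence intervals (circles untreated, squares DMSO). Filled symbols passed the 2-fold and adjusted p thresholds, dotted lines mark 2-fold, and COL4A1 lies at -1.03 and -0.91 while COL4A2 lies at -0.12 and 0.08.

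Of the collagens, 3 of 30 rose and 2 fell untreated, and 3 of 30 rose and 1 fell in DMSO. COL15A1, a basement membrane multiplexin, was at 2.52 and 2.85 log2 CPM in regular and 4.06 and 4.13 in ischemic untreated libraries (log2 fold change 1.40, SE 0.14, adjusted p = 1.48e-06). In DMSO it was at 1.40 and 1.17 in regular and 2.61 and 2.68 in ischemic libraries (log2 fold change 1.35, SE 0.16, adjusted p = 1.02e-06). The groups did not overlap in either experiment.

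COL4A3 and COL4A4 encode chains of the type IV network of kidney and lung and are, like COL4A1 and COL4A2, read in opposite directions, from neighbouring starts on chromosome 2. COL4A4 was at 0.99 and 0.90 in regular and 2.52 and 2.54 in ischemic untreated libraries (log2 fold change 1.58, SE 0.18, adjusted p = 6.79e-06), and at 0.59 and 0.61 in regular and 1.85 and 1.87 in ischemic libraries in DMSO (log2 fold change 1.26, SE 0.21, adjusted p = 4.38e-05). COL4A3, near the limit of detection, rose untreated from 11 and 11 reads to 40 and 46 reads (log2 fold change 1.89, SE 0.33, adjusted p = 2.19e-04). In DMSO its difference did not pass the test, with 17 and 23 reads in regular and 31 and 34 in ischemic libraries (log2 fold change 0.71, SE 0.34, adjusted p = 0.075).

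COL4A1 moved the other way. It was at 8.27 and 8.45 log2 CPM in regular and 7.34 and 7.32 in ischemic untreated libraries (log2 fold change -1.03, SE 0.07, adjusted p = 1.01e-07), and without regular replicate 2 the log2 fold change was -0.94, short of 2-fold. In DMSO it was at 8.25 and 8.30 in regular and 7.39 and 7.34 in ischemic libraries, a difference past the adjusted p but short of 2-fold (log2 fold change -0.91, SE 0.07, adjusted p = 2.43e-09). Its partner COL4A2 was at 9.70 and 9.90 in regular and 9.60 and 9.76 in ischemic untreated libraries, with a log2 fold change of -0.12 (95% confidence interval -0.30 to 0.07), and of 0.08 (-0.06 to 0.21) in DMSO. The log2 difference COL4A1 minus COL4A2 lay between -1.57 and -1.40 in all 8 regular libraries and between -2.53 and -2.26 in all 8 ischemic ones, whatever the treatment. The third pair of the type, COL4A5 and COL4A6, had log2 fold changes of -0.30 and -0.14 untreated and of -0.25 and 0.10 in DMSO.

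**Figure D3:**
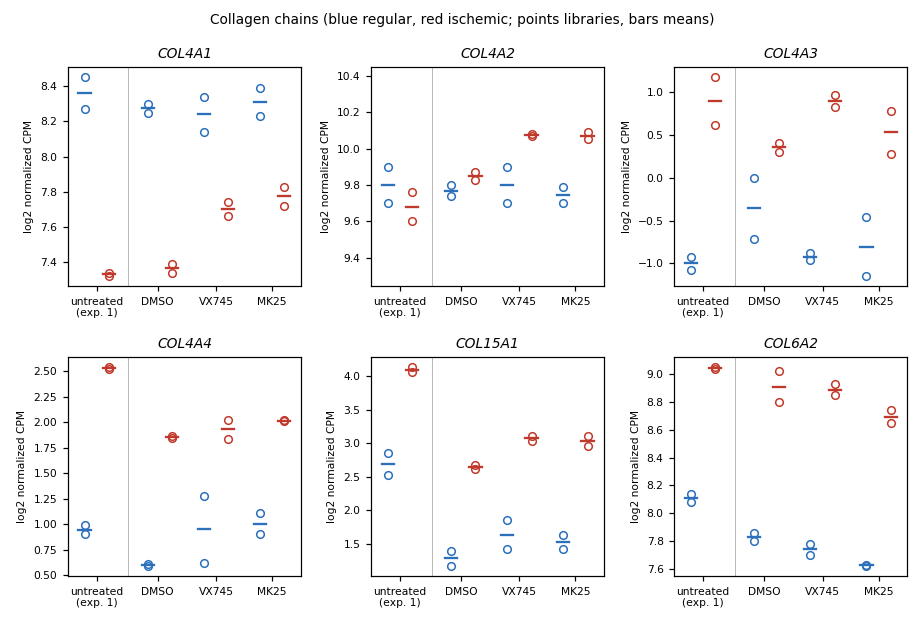
Log2 normalized CPM of 6 collagen chains in every library (blue regular, red ischemic; circles are libraries, bars are means of 2; the first experiment stands left of the line, and each panel has its own scale). COL4A1 lies lower in ischemic than in regular libraries under every treatment, COL4A2 overlaps or lies slightly higher, and COL15A1, COL4A4 and COL6A2 lie higher.

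COL2A1, the chain of cartilage type II collagen, fell in both experiments from a low level. It had 50 and 53 reads in regular and 20 and 15 in ischemic untreated libraries (log2 fold change -1.35, SE 0.27, adjusted p = 6.84e-04), and was at 1.24 and 1.35 in regular and 0.23 and -0.17 in ischemic libraries, as log2 CPM, in DMSO (log2 fold change -1.26, SE 0.30, adjusted p = 0.00126). COL6A2 was at 8.08 and 8.14 in regular and 9.04 and 9.05 in ischemic libraries untreated (log2 fold change 0.94, SE 0.06, adjusted p = 7.87e-08) and at 7.86 and 7.80 in regular and 8.80 and 9.02 in ischemic libraries in DMSO, where it passed 2-fold (log2 fold change 1.08, SE 0.07, adjusted p = 1.80e-10). Without ischemic DMSO replicate 2 that value was 0.97, and after quantile normalization 0.82, both short of 2-fold. Its partner COL6A1 had log2 fold changes of 0.25 and 0.59, and COL6A1 minus COL6A2 lay between -0.03 and 0.11 in regular against -0.71 and -0.58 in ischemic untreated libraries.

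The remaining collagens stayed under 2-fold in both experiments. COL13A1, a transmembrane collagen, had log2 fold changes of 0.76 and 0.71, COL7A1, the anchoring fibril chain, of 0.63 and 0.91, COL19A1 of 0.59 and 0.66, and COL27A1 of 0.39 and 0.71, each past the adjusted p in both. COL18A1, the source of endostatin, was lower untreated (log2 fold change -0.63, SE 0.08, adjusted p = 1.47e-05) but had a log2 fold change of -0.14 in DMSO (adjusted p = 0.142). The abundant COL9A3 and COL11A1 had log2 fold changes of 0.23 and 0.29 untreated and of 0.56 and 0.06 in DMSO.

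Of the laminins, 1 of 8 rose untreated and 2 of 9 in DMSO, and none fell by 2-fold. LAMB3 was at 4.63 and 4.53 log2 CPM in regular and 5.67 and 5.76 in ischemic untreated libraries (log2 fold change 1.14, SE 0.09, adjusted p = 1.61e-07). In DMSO it was at 5.29 and 5.26 in regular and 6.75 and 6.77 in ischemic libraries (log2 fold change 1.49, SE 0.06, adjusted p = 1.45e-12). LAMA3, near the limit of detection with 25 and 13 reads in regular and 38 and 46 in ischemic DMSO libraries, rose there (log2 fold change 1.18, SE 0.27, adjusted p = 9.45e-04), though without regular DMSO replicate 2 the log2 fold change was 0.91.

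The abundant laminin chains were higher by less than 2-fold. LAMB1 was at 9.23 and 9.33 in regular and 9.67 and 9.75 in ischemic untreated libraries (log2 fold change 0.43, SE 0.07, adjusted p = 1.72e-04), with 0.37 in DMSO. LAMC1 had log2 fold changes of 0.24 and 0.22, LAMA4 of 0.52 and 0.35, and LAMB2 of 0.61 and 0.24, all past the adjusted p in both experiments.

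Of the 19 integrins, 5 rose untreated and 3 in DMSO, and none fell by 2-fold. At any fold, 13 were higher and 3 lower untreated, and 11 were higher and 3 lower in DMSO. ITGA5, which with ITGB1 forms the main fibronectin receptor, was at 7.20 and 7.41 log2 CPM in regular and 8.71 and 8.89 in ischemic untreated libraries (log2 fold change 1.49, SE 0.08, adjusted p = 1.36e-08). In DMSO it was at 7.89 and 8.03 in regular and 9.32 and 9.31 in ischemic libraries (log2 fold change 1.35, SE 0.06, adjusted p = 1.76e-12). The groups did not overlap, and no single library left out, and no other scaling, ended the call in either experiment.

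ITGB1 was higher by less, with log2 fold changes of 0.33 (SE 0.07, adjusted p = 7.44e-04) and 0.28 (SE 0.06, adjusted p = 3.62e-04). ITGA5 minus ITGB1 was accordingly between -2.40 and -2.18 in regular and -1.22 and -1.04 in ischemic untreated libraries. ITGB3, the beta chain of the vitronectin receptor, was at 7.36 and 7.57 in regular and 8.62 and 8.73 in ischemic libraries untreated (log2 fold change 1.21, SE 0.08, adjusted p = 5.31e-08) and at 7.77 and 7.75 in regular and 8.56 and 8.49 in ischemic libraries in DMSO, short of 2-fold (log2 fold change 0.77, SE 0.06, adjusted p = 4.83e-09). Its partner ITGAV had log2 fold changes of 0.22 and 0.01.

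ITGAV also pairs with ITGB5 and with ITGB8, the receptor that releases active TGF-β. ITGB8 was at 8.15 and 8.21 in regular and 8.97 and 8.90 in ischemic untreated libraries (log2 fold change 0.76, SE 0.07, adjusted p = 6.12e-07) and at 7.89 and 7.99 in regular and 8.49 and 8.32 in ischemic libraries in DMSO (log2 fold change 0.46, SE 0.07, adjusted p = 2.08e-05). ITGB5 had log2 fold changes of 0.48 and 0.19. ITGB1, ITGB3, ITGB5 and ITGB8, the listed beta partners of ITGAV, were thus higher in ischemic culture past the adjusted p in both experiments, and ITGAV itself untreated (adjusted p = 0.0136) but not in DMSO (adjusted p = 0.895).

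The collagen-binding alpha chains differed among themselves. ITGA11 had 8 and 19 reads in regular and 26 and 29 in ischemic untreated libraries (log2 fold change 1.13, SE 0.39, adjusted p = 0.0198), a call lost without ischemic replicate 2 (0.88, adjusted p = 0.0862), without regular replicate 1 (0.68, adjusted p = 0.187) and after quantile normalization (0.95). In DMSO its value was 0.84 (adjusted p = 5.04e-04). ITGA1 had 0.67 and 0.35 and ITGA2 0.54 and 0.68, past the adjusted p, whereas ITGA10 was lower at -0.63 and -0.56. Among laminin-binding chains ITGA3 had 0.40 and 0.50 and ITGA6 -0.11 and 0.15, the latter not past the adjusted p.

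Lower chains were ITGA4, part of a VCAM1 and fibronectin receptor, with log2 fold changes of -0.81 (SE 0.07, adjusted p = 4.34e-07) and -0.51 (SE 0.06, adjusted p = 1.17e-06), and ITGAE, which binds E-cadherin with ITGB7, with -0.95 and -0.69. The ITGAE groups did not overlap, with 4.29 and 4.07 log2 CPM in regular and 3.22 and 3.24 in ischemic untreated libraries.

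ITGAX and ITGAM, alpha chains of leukocyte integrins that pair with ITGB2, lie on chromosome 16 with 22298 bases between them and rose from very few reads. ITGAX had 2 and 4 reads in regular and 90 and 37 in ischemic untreated libraries, and 12 and 11 in regular and 84 and 114 in ischemic libraries in DMSO. Its fitted log2 fold changes were 3.69 (SE 0.41, adjusted p = 4.75e-06) and 2.94 (SE 0.28, adjusted p = 4.67e-08), and the first depends on the reads added before the logarithm, since 1 regular library lay under the floor of 3 reads. ITGAM had 4 and 7 reads in regular and 15 and 11 in ischemic libraries untreated (log2 fold change 1.11, SE 0.45, adjusted p = 0.0434) and 13 and 10 in regular and 21 and 46 in ischemic libraries in DMSO (log2 fold change 1.36, SE 0.34, adjusted p = 0.00196). The untreated ITGAM call was lost without any one of the 4 libraries, with values of 0.89 to 1.33 and adjusted p of 0.0606 to 0.170, after median centring (1.07, adjusted p = 0.0503) and after quantile normalization (0.65, adjusted p = 0.231). The DMSO call was lost without ischemic DMSO replicate 2 (0.95, adjusted p = 0.0542). ITGB2 was not listed, nor were the leukocyte markers PTPRC, CD14 and CD3E, while CD68 lay between 4.47 and 6.01 log2 CPM over all libraries. Summed CPM of the 2 listed leukocyte markers was 22.3 to 23.5 in regular and 36.7 to 41.8 in ischemic libraries of the first experiment, and 30.7 to 38.9 against 55.6 to 65.7 in the second. These 2 are CD68 and ITGAM itself, and CD68 carries most of the sum. In the first experiment CD68 lay at 4.47 to 5.37 and ITGAM at -2.03 to -0.68 log2 CPM. The part of leukocyte markers in the ITGAX and ITGAM values was not tested.

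Other genes of the pathway were taken from 4 lists, whose counts stand against the 11.3% and 9.1% of all genes that rose and fell untreated and the 9.03% and 8.11% in DMSO. Of 25 listed genes of collagen folding, cross-linking and export, 6 rose (24%) and none fell untreated, and 5 rose (20%) and 2 fell (8%) in DMSO, with medians of 0.40 and 0.52. P4HA1, a prolyl hydroxylase subunit that stabilises the collagen helix, had log2 fold changes of 3.10 (SE 0.06, adjusted p = 1.88e-12) and 2.34 (SE 0.05, adjusted p = 2.33e-16). P4HA2 had 2.34 and 1.74, and the lysyl hydroxylases PLOD1 and PLOD2 had 2.05 and 2.29 untreated and 1.73 and 1.47 in DMSO. The cross-linking enzyme LOXL2 had 1.10 and 1.17, and in DMSO LOX and P3H1 fell, by 1.12 and 1.09. In each experiment P4HA1, P4HA2, PLOD1 and PLOD2 had larger log2 fold changes than any collagen chain.

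Of 22 and 24 listed genes of the integrin adhesion complex, 4 rose (18.2%) and none fell untreated, and 5 rose (20.8%) and 2 fell (8.33%) in DMSO. The tensins TNS1 and TNS2, which link integrins to actin, had log2 fold changes of 3.90 and 1.43 untreated and of 3.66 and 1.01 in DMSO, the integrin activator FERMT2 of 1.15 and 1.09, and vinculin (VCL) of 1.11 and 1.03. In DMSO ZYX, a focal adhesion protein, rose as well (1.17), and FERMT3 (-1.61) and LIMS2 (-1.24) fell. Of 16 other matrix receptors and integrin-associated tetraspanins 2 rose in both experiments (12.5%, near the share of all genes) and none fell, the collagen receptor DDR2 with 2.32 and 2.34 and the syndecan SDC4 with 1.78 and 1.60. Of 17 other matrix proteins 2 rose (11.8%) and 3 fell (17.6%) untreated, and 2 rose (11.8%) and 1 fell (5.88%) in DMSO. The integrin ligand CCN1 had 1.47 and 1.90 and THBS2 1.64 and 1.38, while THBS1 had -1.20 and -1.21.

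The inhibitors were compared with DMSO in the same culture, with a threshold of 1.5-fold and an adjusted p under 0.05. Both share the DMSO libraries of a culture, so their values stand side by side and are not independent of each other. In ischemic cells VX745 raised 1 of 58 members and lowered 1, where 4.35% of all genes rose and 0.906% fell. MK25 raised 3 and lowered 3, where 7.02% rose and 2.65% fell. Of all genes called, 82.8% were higher with VX745 and 72.6% with MK25, and 62.6% and 56.4% after quantile normalization. With no fold threshold, 11 members were higher and 7 lower with VX745 (14% and 14.9% of all genes), and 8 higher and 15 lower with MK25 (19.8% and 22%).

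**Figure D4:**
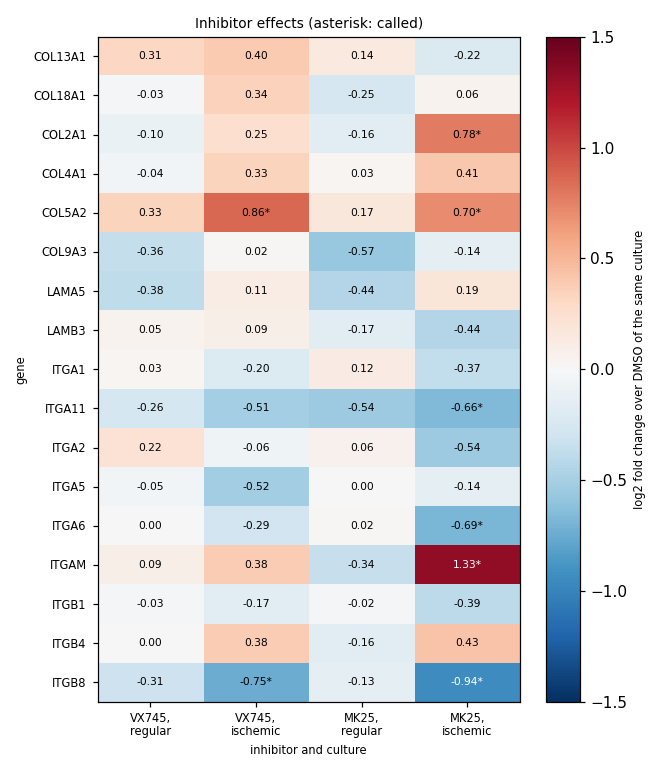
Log2 fold change over DMSO of the same culture for the members called in any inhibitor comparison or interaction (columns: VX745 and MK25 in regular and ischemic culture; asterisks mark calls). ITGB8 lies at -0.75 and -0.94 in ischemic culture, against -0.31 and -0.13 in regular culture, and no call stands in the regular columns.

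ITGB8 fell with both inhibitors in ischemic culture. It was at 8.49 and 8.32 log2 CPM in DMSO, 7.67 and 7.64 with VX745 (log2 fold change -0.75, SE 0.07, adjusted p = 1.90e-06) and 7.37 and 7.55 with MK25 (log2 fold change -0.94, SE 0.07, adjusted p = 4.75e-08). Neither treated group overlapped the DMSO group. The level with either inhibitor was below that of regular DMSO cells, 7.89 and 7.99, and no library left out and no other scaling ended these calls, whereas a 2-fold threshold did.

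MK25 also lowered ITGA6 and ITGA11 in ischemic cells. ITGA6 was at 8.26 and 8.16 in DMSO and 7.44 and 7.61 with MK25 (log2 fold change -0.69, SE 0.07, adjusted p = 9.69e-07), with 7.89 and 7.96 under VX745 (log2 fold change -0.29, SE 0.07, adjusted p = 0.0053). After quantile normalization the MK25 value was -0.54, short of 1.5-fold. Of its partners, ITGB1 had -0.39 (adjusted p = 5.47e-05) and ITGB4, the hemidesmosome chain, had 0.43 (adjusted p = 0.00867). ITGA11 was at 2.30 and 2.56 in DMSO, 1.66 and 1.86 with MK25 (log2 fold change -0.66, SE 0.18, adjusted p = 0.00712) and 1.93 and 1.91 with VX745 (log2 fold change -0.51, SE 0.18, adjusted p = 0.0428), and the MK25 call was lost without ischemic MK25 replicate 1 (-0.56, adjusted p = 0.0722) or ischemic DMSO replicate 2 (-0.53, adjusted p = 0.0824).

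ITGA2, another collagen-binding chain, was short of 1.5-fold with MK25, at 6.03 and 6.15 against 6.65 and 6.61 in DMSO (log2 fold change -0.54, SE 0.06, adjusted p = 2.85e-06), and had -0.06 (95% confidence interval -0.19 to 0.07) with VX745. ITGA5 had the reverse order of inhibitors, at 8.83 and 8.76 with VX745 (log2 fold change -0.52, SE 0.06, adjusted p = 1.10e-05) and 9.17 and 9.17 with MK25 (log2 fold change -0.14, SE 0.06, adjusted p = 0.0604), neither past 1.5-fold.

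**Figure D5:**
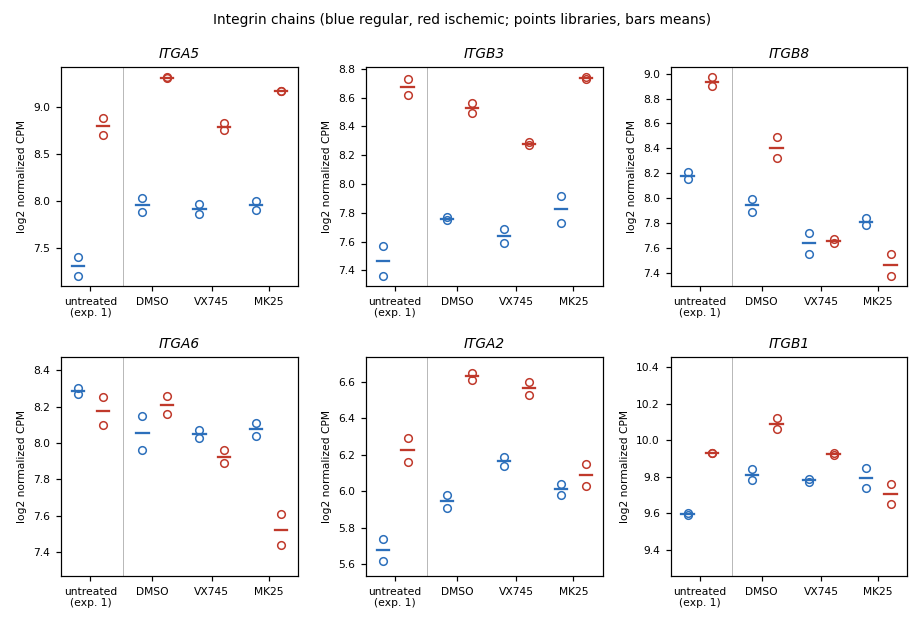
Log2 normalized CPM of 6 integrin chains in every library (blue regular, red ischemic; circles are libraries, bars are means of 2; the first experiment stands left of the line, and each panel has its own scale). Ischemic libraries lie above regular ones for ITGA5 and ITGB3 under every treatment, while ITGB8 and ITGA6 with MK25 lie below the regular MK25 libraries. ITGA6 also lies lower in ischemic than in regular libraries with VX745 and, slightly, in untreated cells.

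COL5A2, the second chain of type V collagen, rose with both inhibitors in ischemic cells. It was at 0.83 and 0.62 in DMSO, 1.44 and 1.72 with VX745 (log2 fold change 0.86, SE 0.21, adjusted p = 0.00584) and 1.39 and 1.47 with MK25 (log2 fold change 0.70, SE 0.21, adjusted p = 0.013). The VX745 call was lost without ischemic VX745 replicate 2 (0.72, adjusted p = 0.0781), and the MK25 call without ischemic MK25 replicate 2 (0.67, adjusted p = 0.0721), without ischemic DMSO replicate 2 (0.60, adjusted p = 0.0891) and after quantile normalization (0.49, adjusted p = 0.0825). Its far more abundant partner COL5A1 was at 7.55 and 7.55 in DMSO, higher in both VX745 libraries (log2 fold change 0.42, SE 0.06, adjusted p = 7.97e-05) and 7.48 and 7.55 with MK25, a log2 fold change of -0.04 (95% confidence interval -0.16 to 0.09).

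COL2A1 rose with MK25 from 27 and 24 to 54 and 68 reads (log2 fold change 0.78, SE 0.30, adjusted p = 0.0468). That call was lost without any one of 6 libraries, those of ischemic MK25, ischemic DMSO and regular DMSO, with values of 0.58 to 0.98 and adjusted p of 0.0512 to 0.251, and after quantile normalization (0.54, adjusted p = 0.186). ITGAM rose with MK25 from 21 and 46 to 119 and 100 reads (log2 fold change 1.33, SE 0.34, adjusted p = 0.00512), and had 54 and 44 reads with VX745 (log2 fold change 0.38, SE 0.34, adjusted p = 0.439). Without ischemic MK25 replicate 1 the MK25 value was 1.24 (adjusted p = 0.0535), and without ischemic DMSO replicate 1 it was 0.92 (adjusted p = 0.0932). The neighbouring ITGAX had -0.34 and 0.29.

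COL4A1, lower in ischemic culture, was higher with both inhibitors there, by less than 1.5-fold. It was at 7.39 and 7.34 in DMSO, 7.74 and 7.66 with VX745 (log2 fold change 0.33, SE 0.07, adjusted p = 0.00183) and 7.72 and 7.83 with MK25 (log2 fold change 0.41, SE 0.07, adjusted p = 1.65e-04), still below the 8.25 and 8.30 of regular DMSO cells. COL4A2 had 0.23 and 0.22 (adjusted p = 0.0135 and 0.0104). No laminin was called with either inhibitor in ischemic cells, but by the adjusted p alone, with limma, LAMB1 (-0.34) and LAMB3 (-0.44) were lower with MK25.

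Among the other listed genes in ischemic cells, THBS1 and THBS2 fell with MK25 (-0.61 and -0.65) in a list of 17 in which none rose, while CCN2 rose with VX745 (0.82) in the same list with none falling. In the adhesion complex list of 24, LIMS2 (1.01) and TNS3 (0.63) rose with VX745 and none fell, and TNS1 (1.81) and TNS3 (0.64) rose and FERMT1 (-1.09) fell with MK25. Of 25 collagen-processing genes P3H1 alone was called, with MK25 (0.93), and of 16 other receptors none was called with either inhibitor. By the adjusted p alone, 2 receptors were higher and 4 lower with VX745, where 14% and 14.9% of all genes were. With MK25, 5 were higher and 6 lower, where 19.8% and 22% of all genes were. With MK25, 2 of the 4 listed fibroblast or pericyte markers rose and 2 of the 3 listed epithelial markers fell. COL1A1, a member and 1 of those 4, was not called. Of the 2 listed leukocyte markers 1 rose with MK25, and none of the 8 glioma or astrocyte markers was called. With VX745, 1 of 4 fibroblast or pericyte and 1 of 8 glioma or astrocyte markers rose, and no leukocyte or epithelial marker was called. The calls of this paragraph stand beside 4.35% of all genes higher and 0.906% lower with VX745, and 7.02% and 2.65% with MK25. The part of these markers in the values of the members was not tested.

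Directly against each other in ischemic cells, MK25 and VX745 differed by 1.5-fold in 1 member, with COL13A1 lower under MK25 and none higher, where 2.2% of all genes were lower and 1.75% higher, 3.96% in all. COL13A1 was at 4.63 and 4.65 with MK25 and 5.29 and 5.20 with VX745 (log2 fold change -0.61, SE 0.08, adjusted p = 1.97e-05), with DMSO between them at 4.82 and 4.88. Without ischemic VX745 replicate 1 the value was -0.57, short of 1.5-fold. By the adjusted p alone, 15 members were lower under MK25 than under VX745 and 2 higher, with 10.2% and 8.22% of all genes. The 2 higher were ITGA5 (log2 fold change 0.37, SE 0.06, adjusted p = 2.21e-04) and ITGB3 (log2 fold change 0.45, SE 0.06, adjusted p = 4.34e-05), and COL5A1 (-0.46), ITGA2 (-0.48) and LAMB3 (-0.53) were among the lower, all chosen here after their values were seen. The stated doses differ, 2 µM for VX745 and 10 µM for MK25, so these values compare the treatments and not the compounds at 1 dose.

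In regular culture no member was called with either inhibitor by limma at 1.5-fold, where 0.0998% of all genes were called with VX745 (0.0642% higher and 0.0357% lower) and 2.49% with MK25 (1.88% higher and 0.606% lower), and none was called with voom. At an unadjusted p under 0.05 and any size, 7 members were higher and 5 lower with VX745, and 1 was higher and 12 lower with MK25, where 6.99% and 7.81% of all genes passed with VX745 and 14.6% and 13% with MK25. At any fold and an adjusted p under 0.05, 0 members passed with VX745, where 0.178% of all genes were higher and 0.157% lower. With MK25 7 members passed, all lower, where 7% of all genes were higher and 5.21% lower. The 7 included COL9A3, at 8.63 and 8.50 in DMSO and 8.06 and 7.94 with MK25 (log2 fold change -0.57, SE 0.11, adjusted p = 0.00191), COL8A1 (-0.30), ITGA4 (-0.29), LAMB1 (-0.27) and LAMA5 (-0.44).

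Whether an inhibitor acted differently in the 2 cultures was tested by the interaction, the log2 fold change over DMSO in ischemic cells minus that in regular cells, at any size with an adjusted p under 0.05. For VX745, 2 of 58 members had a positive and 3 a negative interaction, where 5.78% and 6% of all genes did. For MK25, 5 were positive and 7 negative, where 10.5% and 13.9% of all genes were. The same DMSO libraries enter both interactions.

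ITGB8 had a negative interaction with both, -0.44 for VX745 (SE 0.10, adjusted p = 0.0112) and -0.81 for MK25 (SE 0.10, adjusted p = 3.19e-05). In regular cells it was at 7.72 and 7.55 with VX745 and 7.78 and 7.84 with MK25, against 7.89 and 7.99 in DMSO. ITGA2 was also negative with both, -0.28 (adjusted p = 0.042) and -0.60 (adjusted p = 1.05e-04), and COL4A1 positive with both, 0.37 (adjusted p = 0.0205) and 0.38 (adjusted p = 0.00946). The VX745 call of ITGB8 was lost without ischemic DMSO replicate 1 (adjusted p = 0.0681), without regular VX745 replicate 1 (adjusted p = 0.0624) and after quantile normalization (-0.30, adjusted p = 0.101). That of ITGA2 was lost without any one of 7 of the 8 libraries of its contrast, regular DMSO replicate 1 excepted, with values of -0.32 to -0.24. That of COL4A1 was lost without replicate 1 of ischemic VX745, ischemic DMSO or regular VX745 or replicate 2 of either DMSO group, with values of 0.27 to 0.40. Without a variance trend in limma these VX745 calls were all lost, as was the MK25 call of COL4A1 (adjusted p = 0.0614).

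Among integrins ITGA6, ITGA1 and ITGB1 also had negative MK25 interactions. ITGA6 had -0.71 (SE 0.10, adjusted p = 8.50e-05), being at 8.04 and 8.11 with MK25 and 8.15 and 7.96 with DMSO in regular cells. ITGA1 had -0.49 (SE 0.12, adjusted p = 0.00886) and ITGB1 itself -0.37 (SE 0.08, adjusted p = 0.00355), but after quantile normalization ITGB1 had -0.07 (adjusted p = 0.608). The ITGA1 call was lost without ischemic MK25 replicate 1 (-0.39, adjusted p = 0.0521). The most abundant alpha chain, ITGA3, had -0.17 (adjusted p = 0.171). COL13A1 (-0.36) and LAMB3 (-0.27) completed the negative calls. The COL13A1 call was lost without any one of ischemic MK25 replicate 1, ischemic DMSO replicate 2, regular MK25 replicate 1 and regular DMSO replicate 2 (-0.35 to -0.29), and the LAMB3 call without any one of 10 libraries (-0.30 to -0.24) and after quantile normalization (-0.17, adjusted p = 0.201).

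Positive MK25 interactions were those of ITGAM (1.67, SE 0.49, adjusted p = 0.0184), LAMA5 (0.63), ITGB4 (0.59), COL9A3 (0.43) and COL4A1. LAMA5 stood at 3.60 and 4.20 in the 2 regular DMSO libraries and at 3.46 and 3.45 with MK25, and without regular DMSO replicate 2, the higher, its value was 0.33 (adjusted p = 0.0978). The call was also lost without replicate 1 of ischemic MK25 or ischemic DMSO, with values of 0.61 in both cases. ITGB4 was at 3.80 and 3.79 with MK25 and 3.35 and 3.37 with DMSO in ischemic cells, and at 2.75 and 3.12 with MK25 and 3.02 and 3.17 with DMSO in regular cells, and its call was lost without ischemic MK25 replicate 1, regular MK25 replicate 1 or regular DMSO replicate 2 (0.41 to 0.59). The ITGAM call was lost without replicate 1 of ischemic MK25, ischemic DMSO or regular MK25 (1.26 to 1.58), and the COL9A3 call without any one of 9 libraries (0.19 to 0.49). VX745 interactions were also seen for COL18A1 (0.37, adjusted p = 0.0482, lost without any one of 9 libraries, down to 0.19 without ischemic DMSO replicate 1) and ITGA5 (-0.47, adjusted p = 0.00249). ITGA5 was at 7.86 and 7.97 with VX745 and 7.89 and 8.03 with DMSO in regular cells, and after quantile normalization its interaction was -0.27 (adjusted p = 0.0603). Of the 25 collagen-processing genes, 1 had a positive (4%) and 9 a negative (36%) MK25 interaction, and of the 24 adhesion complex genes 5 (20.8%) and 7 (29.2%), beside the 10.5% and 13.9% of all genes given above.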

How the data were processed

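Total RNA of LN229 cells was extracted with TRIzol, made into libraries with SMART-Seq and Nextera kits and sequenced as paired ends. Per the study's methods and the submitters' processing notes, reads were aligned with HISAT2 to GRCh38, and edgeR was used for normalization. The counting program is not given in the sources used here. The values deposited by the authors are log2 normalized CPM in 2 tables, 1 for each experiment, which were normalized separately and are tested separately. Whole reads were recovered from them within 0.05 reads and served for depth, read counts and an alternative fit with voom.

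Each gene was fitted with limma 3.58.1 (R 4.3.3) with a variance trend, over 4 libraries in the first and 12 in the second experiment, with Benjamini-Hochberg adjustment over all genes of the table. A gene was called at an adjusted p under 0.05 and 2-fold for ischemic against regular culture or 1.5-fold for inhibitors, and at any size for interactions. Intervals are 95% confidence intervals. The fit was tested on simulated data. RPKM used transcript lengths of GENCODE release 44, and sequences are from RefSeq.

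Named were, in each family, members called the same way in both experiments (up to 5 a direction), up to 4 called members a direction in each inhibitor comparison or interaction, the 3 with the highest RPKM and known chain partners. Genes outside this rule, such as COL4A3, COL7A1, COL19A1, COL27A1, ITGA4, ITGAE and those of the pathway lists, were chosen after their values were seen. The members and lists were chosen with earlier results of these data known. Alternatives were an unadjusted p, other fold thresholds, a mean of at least 1 CPM, median centring, quantile normalization, no variance trend, a replicate block, only the groups compared, voom and each library left out. The values of one counted member are not reported here.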

Additional observations from a re-analysis of the deposited data

Results flagged for a closer look

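The effect of an inhibitor differed between ischemic and regular cells, by the interaction in limma, for 17 pairs of a member and an inhibitor. These were 8.62% of 58 members with VX745 and 20.7% with MK25, where 11.8% and 24.4% of all genes were called. Most of the 17 were lost when some single library was left out, as given above. With VX745 the interaction was -0.47 for ITGA5, -0.44 for ITGB8, -0.28 for ITGA2, 0.37 for COL4A1 and 0.37 for COL18A1. With MK25 it was -0.81 for ITGB8, -0.71 for ITGA6, -0.60 for ITGA2, -0.49 for ITGA1, -0.37 for ITGB1, -0.36 for COL13A1 and -0.27 for LAMB3. The positive values with MK25 were 1.67 for ITGAM, 0.63 for LAMA5, 0.59 for ITGB4, 0.43 for COL9A3 and 0.38 for COL4A1. All are on the log2 scale, as the change over DMSO in ischemic cells minus that in regular cells.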

How the results depend on the processing

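Over 860 pairs of a named gene's comparison and an alternative, 734 kept their side of the threshold, 126 were no longer past it and none reversed. An unadjusted p, and 1.5-fold in place of 2-fold, only loosen the rule and could not end a call. Leaving out a library outside a contrast left its fold change as it was. The 734 is therefore no measure of how firm the calls are. Losses were uneven, with the VX745 interaction of COL18A1 lost in 14 of 21 alternatives and the MK25 interaction of ITGA6 in 0 of 21. Without 1 library, where a lone library of a group is assumed to vary like the others, untreated ischemic culture raised 7 to 8 members and lowered 2 to 3, and in DMSO it raised 6 to 8 and lowered 1. In ischemic cells VX745 raised 0 to 2 (0 without ischemic VX745 replicate 2, 2 without ischemic DMSO replicate 2) and lowered 1. MK25 there raised 1 to 3 (1 without either ischemic MK25 or either ischemic DMSO library) and lowered 2 to 5 (5 without ischemic MK25 replicate 2). In regular cells each inhibitor raised 0 and lowered 0 to 1. MK25 against VX745 gave 0 to 1 higher and 0 to 2 lower. VX745 interactions were 0 to 4 positive and 1 to 4 negative, MK25 interactions 1 to 6 and 4 to 8. With 1.5-fold in place of 2-fold, ischemic culture raised 17 and lowered 7 members untreated, where 2886 and 2734 of all 13559 genes rose and fell. In DMSO it raised 16 and lowered 3 members, where 2537 and 2506 of all 14024 genes rose and fell. With a mean of at least 1 CPM, 5 members rose untreated, and 1334 of the genes kept did. With 2-fold in place of 1.5-fold, VX745 in ischemic cells raised 0 and lowered 0, MK25 raised 1 and lowered 0, and MK25 against VX745 gave 0 lower. Of all genes, VX745 then raised 159 and lowered 34, MK25 raised 290 and lowered 94, and 108 were lower with MK25 than with VX745. With a 1.5-fold threshold on interactions, VX745 had 0 positive and 0 negative, and MK25 had 3 and 3. Over all genes there were 330 and 103 with VX745, and 618 and 495 with MK25. After quantile normalization, 2 fell in DMSO ischemia and 2 with VX745 in ischemic cells, 1 rose with MK25 and 2 were lower with MK25 than with VX745. Of all genes, 1108, 192, 629 and 329 did so, in that order. VX745 interactions were then 6 positive and 0 negative, and MK25 interactions 8 positive. Over all genes these were 590, 436 and 1412. Median centring left 1 positive VX745 interaction, with 724 over all genes. Without a variance trend, MK25 against VX745 gave 1 higher and 2 lower, VX745 interactions were 0 and 1, and MK25 interactions 2 positive. With only the groups compared, MK25 against VX745 gave 2 and 2, and VX745 interactions 1 positive. With voom, MK25 against VX745 gave 2 and 3, and VX745 interactions 1 positive. With a mean of at least 1 CPM, MK25 against VX745 gave 2 lower. At an unadjusted p under 0.05, VX745 in regular cells raised 1, MK25 there lowered 1, and MK25 against VX745 gave 2 higher and 3 lower. Of all genes, 134, 177, 337 and 369 did so, in that order. VX745 interactions were 12 and 5, and MK25 interactions 9 positive, against 1920, 1893 and 2300 over all genes. The cause of these shifts was not tested.

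With a replicate block, MK25 interactions were 6 positive and 8 negative, where 1455 and 1958 of all genes were. The other counts of members did not change, and no named call was lost. Same-numbered libraries deviated with correlations of -0.27 to 0.32 between groups of the second experiment and of 0.27 in the first. With 2 libraries a group these values cannot tell whether same-numbered libraries belong together. The main fits do not pair them. At these depths, genes with few reads, such as COL4A3, COL2A1, LAMA3 and ITGAM, have wide intervals.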
